A study of Apis mellifera with 27 samples.

Results

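Sites of H3K4me1 that were called in both queen brain libraries and in neither worker library, or the reverse, were drawn from 4 peak lists of the honey bee, Apis mellifera, made from adults that had just left their cells. Queens and workers are the female castes, and every library came from a pool of brains, with 2 libraries (replicates 1 and 2) per caste. All peaks of the 4 lists that shared at least 1 bp were merged, which gave 35680 regions. The whole series holds 27 samples, of which 24 have a peak list, and the same merging over all 24 lists gives 80694 regions. Its other lists are of H3K27ac, H3K27me3 and H3K4me3 in the same castes, and of the male drone, and they were used only as readouts at the H3K4me1 regions. Queens and workers carried no treatment and no altered allele, and caste is the labelled difference between them. Peak lists hold no expression values, so the brain label could not be checked against marker transcripts.

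H3K4me1 is 1 methyl group on lysine 4 of histone H3. In animals it is laid down by the MLL3/4 family of methyltransferases, called Trr in Drosophila, and is best known from enhancers, the sequences that raise transcription of a gene from a distance. Enhancers in use commonly carry H3K27ac as well, and those held silent by Polycomb proteins can carry H3K27me3, whereas H3K4me3 marks the starts of transcribed genes. Queen and worker honey bees develop from the same kind of egg according to larval feeding, so both castes arise from a common genome, and histone marks are among the means by which a genome is read differently. No genome sequence was used here, and for this reason regions are given by position and gene and without their letters.

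The queen lists were longer than the worker lists. Queen replicates 1 and 2 had 23717 and 21062 peaks, and worker replicates 1 and 2 had 12475 and 14070. The means were 22389.5 ± 1877 and 13272.5 ± 1128 peaks (SD, n = 2), a log2 ratio of 0.75. The castes did not overlap, and the exact permutation test over the 3 ways to split 4 libraries gave p = 0.33, the smallest this design allows. The depth moved with the caste too. The number of tags (mapped reads kept for the calling of peaks) behind each list, recovered from the deposited fold and p-value of the summits, was 25.1 and 23.2 M (M for mega, as in Mb) for the queens and 15.7 and 15.98 M for the workers. When every summit was thinned to the lowest depth, 18155 and 16431 queen peaks and 11755 and 13109 worker peaks remained, so both queen lists stayed longer than both worker lists. Depth and caste cannot be told apart further in 4 libraries. The study's methods give a single mother queen for all bees, so the spread between replicates is that between pools of brains of related bees and does not cover differences between colonies.

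Of the 35680 merged regions, 15613 (43.8%) had a peak in 1 library and 4716 (13.2%) had one in all 4. Regions with a peak in both queen and neither worker library, called queen-only, numbered 5626, or 15.8% of all merged regions. Their counterpart, with a peak in both worker and neither queen library and called worker-only, numbered 814, or 2.28%. Together 6440 regions (18%) divided the libraries by caste. The mixed splits, which set a queen and a worker library against the other queen and the other worker, divided 1590 regions (4.46%) and 1662 regions (4.66%). The split by caste was thus 3.96 times the mean of the mixed splits, with p = 0.33 in the exact permutation test, again the smallest possible. The single mixed patterns held 853 regions (2.39%) for both replicates 1, 737 (2.07%) for both replicates 2, 1027 (2.88%) for queen replicate 1 with worker replicate 2 and 635 (1.78%) for queen replicate 2 with worker replicate 1. The 814 worker-only regions lay within that range. In the lists as deposited, the excess over the mixed patterns was on the queen side of the split alone.

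**Figure D1:**
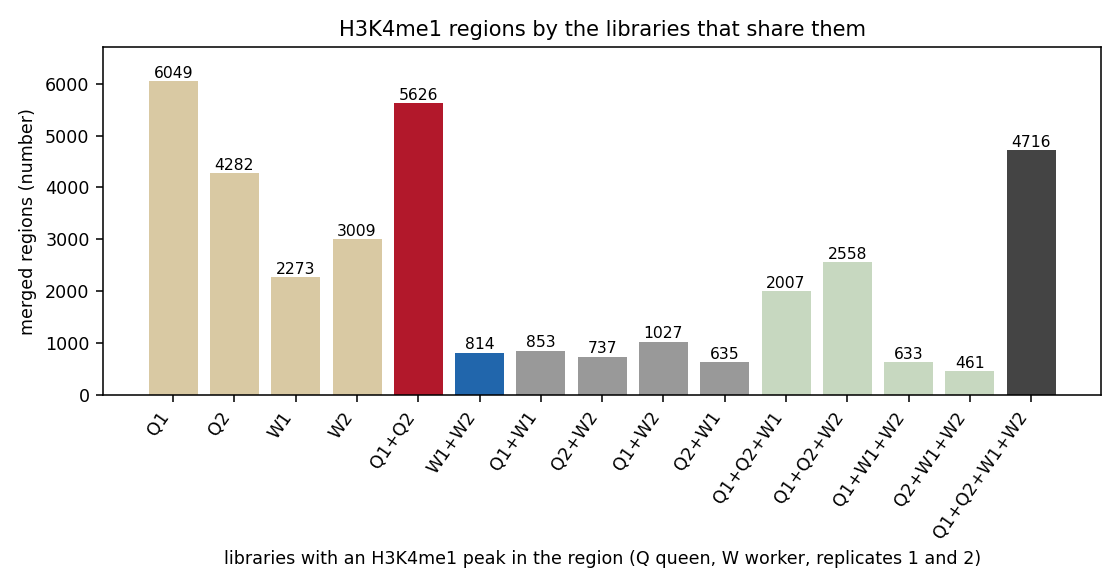
Number of merged H3K4me1 regions (vertical axis) for each combination of the 4 libraries that had a peak in them, with Q for queen and W for worker. The combination of both queen libraries alone holds 5626 regions, against 814 for both worker libraries alone and 635 to 1027 for each of the 4 mixed pairs in grey.

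The size of this asymmetry differed between ways of making the lists. With the strongest 12475 peaks of every library, as many as the shortest list holds, there were 2134 queen-only and 1732 worker-only regions. The mixed splits then held 1337 and 1419 regions with both of their sides together, so the excess was on both sides of the caste split. Thinning to the lowest depth left 3614 queen-only and 1084 worker-only regions. The division by caste itself was less sensitive, and was 2.81 times the mixed splits at equal numbers of peaks and 2.97 times after thinning. Without 1 of the libraries it was 1.54 to 1.99 times, the lowest value being that without worker replicate 2. Mixed splits place 1 deep and 1 shallow library on each side, so they give no background for a difference in depth between the castes.

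**Figure D2:**
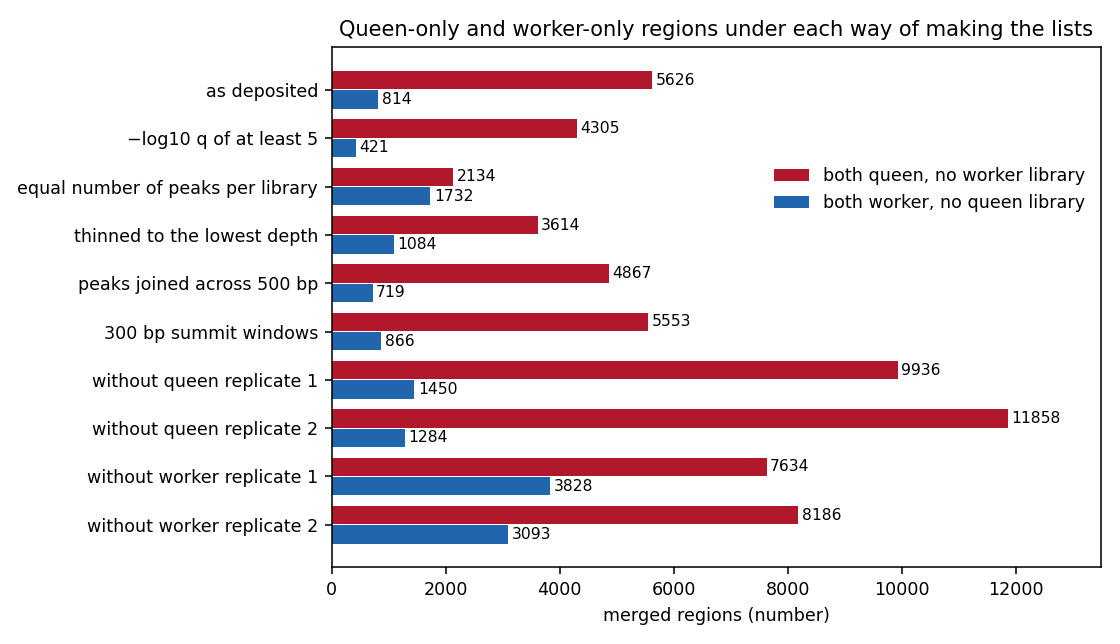
Number of queen-only and worker-only regions (horizontal axis) with the lists as deposited and under each alternative way of making or merging them. Queen-only regions outnumber worker-only regions in all settings shown, by 5626 to 814 as deposited and by 2134 to 1732 at equal numbers of peaks.

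By lengths of sequence the libraries also resembled their own caste, but by shares of regions only the queens did. The Jaccard index, the base pairs covered in both lists over those covered in either, was 0.456 between the queens and 0.298 between the workers. The 4 queen to worker pairs gave 0.252 to 0.272, below both values. The gap between the worker pair and the nearest mixed pair was small beside that of the queen pair. Worker replicate 1 shared 53.5% of its regions with worker replicate 2, but 66.2% and 63.1% with queen replicates 1 and 2. Worker replicate 2 shared 47.5% with worker replicate 1, and 64.0% and 60.7% with the queens. Both measures depend on the length of the lists, which was larger in the queens.

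Queen-only regions were wider than worker-only regions and narrower than those shared by all. Their median width was 339 bp, against 289 bp for worker-only regions, 285 bp for regions of a mixed pair and 391 bp for regions found in all 4 libraries. For queen replicate 2 paired with worker replicates 1 and 2 it was 321 and 328 bp, and for queen replicate 1 it was 268 and 264 bp. Queen replicate 2, which had the widest peaks with a median of 311 bp, is part of every queen-only region. Among the queen-only regions 53 were at least 1000 bp wide, and among the worker-only regions none was. A merged region spans every peak in it, so width grows with the number of libraries that share it, and the minimum peak width was 182 to 211 bp in the lists. Fold enrichment, the height of a summit over its local background, is a value that the calling of peaks used and is given here as a description. Its median at queen-only regions was 2.06 in queen replicate 1 and 2.00 in queen replicate 2. At worker-only regions it was 2.22 and 2.29 in the worker libraries, while regions shared by all had 2.64 to 2.75. The caste classes were therefore weaker calls than the shared regions in the same library. A −log10 q of at least 10 in both libraries, far above the lowest listed value of about 2.00, was reached by 1067 of the 5626 queen-only and by 46 of the 814 worker-only regions. At 20 or more, 83 queen-only regions and 1 worker-only region remained. The q-value also depends on depth, which was larger in the queens.

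Few of these regions bordered directly on a peak of the other caste. Only 6 queen-only regions lay within 100 bp of a worker peak and 1 worker-only region within 100 bp of a queen peak. Yet the other caste was seldom far away. The median distance from a queen-only region to the nearest worker peak was 2.36 kb, and 26.1% had one within 1 kb. From a worker-only region to the nearest queen peak it was 1.55 kb, with 34.8% within 1 kb. More than 10 kb separated 12.1% of queen-only and 4.59% of worker-only regions from any peak of the other caste, and the other caste's lists differ in length, which sets part of such distances.

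Both classes lay in gene bodies. A RefSeq gene table of the assembly Amel_HAv3.1, on which all coordinates here are given, places 12255 genes on 16 chromosomes by their span, without strand or exons. By their midpoint 80.7% of queen-only regions (95% Wilson interval 79.6 to 81.7) and 81.7% of worker-only regions (78.8 to 84.2) lay in a gene body, further than 200 bp from either end. Gene bodies make up 74.03% of the placed sequence. Regions of mixed pairs had 81.3% and those shared by all libraries 82.5%, so position in a gene body did not set the caste classes apart from other H3K4me1 regions. Gene ends, within 200 bp of either limit of a gene, held 1.61% of queen-only regions (1.31 to 1.97) and 2.48% of worker-only regions (1.61 to 3.80). They make up 4.07% of the sequence. Intervals here cover counting error only, since regions of one library are not independent samples.

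Long genes held a large part of them. Genes of at least 100 kb, 393 in number, contained 40.7% of queen-only and 43.0% of worker-only regions, beside 41.1% of the mixed and 33.7% of the shared regions, and they span 36.9% of the sequence. This matters for every count by gene below. At least 1 queen-only region lay in 16.3% of all genes, at least 1 worker-only region in 4.55% and at least 1 mixed region in 12.3%. Among genes of at least 100 kb these shares were 90.8%, 49.6% and 85.2%, and among genes under 10 kb they were 6.11%, 0.776% and 3.68%. Per 100 kb of gene, by contrast, queen-only regions had a similar density at all lengths, between 2.01 and 3.51. Of the 557 genes with a worker-only region, 402 (72.2%) also had a queen-only one, which is 20.1% of the 1998 genes with a queen-only region. The median length was 25.6 kb for genes with a queen-only and 64.0 kb for genes with a worker-only region, against 3.62 kb for all genes.

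Queen-only regions formed clusters. Chains of at least 4 regions of 1 class with gaps of at most 10 kb held 880 queen-only regions in 172 clusters, or 15.7% of those on the chromosomes. Worker-only regions made 1 such cluster, of 4 regions (0.496%). Clustering rises with the number of regions in a class, and the 4716 regions shared by all libraries are the nearest in number. Of these 13.9% were clustered, in 131 clusters. With equal numbers of peaks 2.08% of queen-only regions were clustered, and after thinning 6.76%. The single worker-only cluster lay on chromosome 11 from 14220773 to 14233055, over the non-coding RNA gene LOC107965253 and the microRNA gene Mir8. LOC107965253 itself had 4 and 2 queen peaks and 5 and 5 worker peaks of H3K4me1. These are few peaks, and the queen lists as a whole had 1.69 times as many peaks as the worker lists.

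The largest queen-only cluster was over Ultrabithorax (Ubx), on chromosome 16 from 3764813 to 3844697. It had 20 queen-only regions, none worker-only, 2 mixed and 1 shared by all. Ubx and its neighbour Antennapedia (Antp) are Hox genes, which encode homeodomain transcription factors that give body segments their identity in insects, and Polycomb proteins are known to hold them silent in heads of Drosophila. The next cluster, of 13 regions from 3506070 to 3553830, lay in the same stretch of the chromosome, over LOC102656349 and LOC410643. The third, of 12 regions, was on chromosome 2 from 15271228 to 15314625. Of all chromosomes, chromosome 16 had the most queen-only regions per Mb, 40.7 against 18.5 to 30.8 on the others. Worker-only regions were not densest there, at 3.88 per Mb within a range of 2.04 to 5.22.

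The Hox stretch, from the lower limit of LOC102656349 at 3344509 to the upper limit of Antp at 4037081, was singled out after these values were seen. It held 112 queen-only regions, 5 worker-only, 23 mixed and 56 shared by all. That is 16.2 queen-only regions per 100 kb, against 2.54 over the chromosomes, and 0.722 worker-only regions against 0.366. Whole lists gave a less uneven picture. There were 314 and 272 peaks in the block in the queens, 107 and 172 in the workers, and 412 and 476 in the drones. As a share of each list these were 1.32% and 1.29% for the queens, 0.858% and 1.22% for the workers, and 2.17% and 2.201% for the drones. Both queen shares lay above both worker shares, but the 95% Wilson intervals of the queens (1.19 to 1.48 and 1.15 to 1.45) overlapped that of worker replicate 2 (1.05 to 1.42). The drones, which the choice of regions did not use, lay above all 4 female libraries.

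Much of the block, which is 692.6 kb long, was covered by H3K27me3 in both castes. Its H3K27me3 peaks numbered 487 and 466 in the queens and 457 and 410 in the workers, and covered 405 and 412 kb in the queens and 408 and 443 kb in the workers. The coverage of the castes overlapped. In contrast H3K27ac gave 1 and 1 peaks in the queens and 0 and 2 in the workers. Of the 112 queen-only regions themselves, 112 and 112 had an H3K27me3 peak in the queens and 111 and 112 in the workers, none had an H3K27ac peak in any of the 4 libraries, and 96 and 104 had an H3K4me1 peak in the drones. The queen-only H3K4me1 calls thus stood on sequence that was called for the Polycomb mark in the brains of both castes. These shares were not taken for the other H3K4me1 regions of the block, so they do not set the queen-only regions apart from those. Their number was smaller in every setting that evened out the lists. With thinning the block held 55 queen-only and 13 worker-only regions, and with equal numbers of peaks 28 and 22. Leaving out worker replicate 1 gave 123 and 34. This last library was the sparsest over the block and over Ubx itself, where the lists had 63 and 54 queen peaks and 10 and 26 worker peaks.

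**Figure D3:**
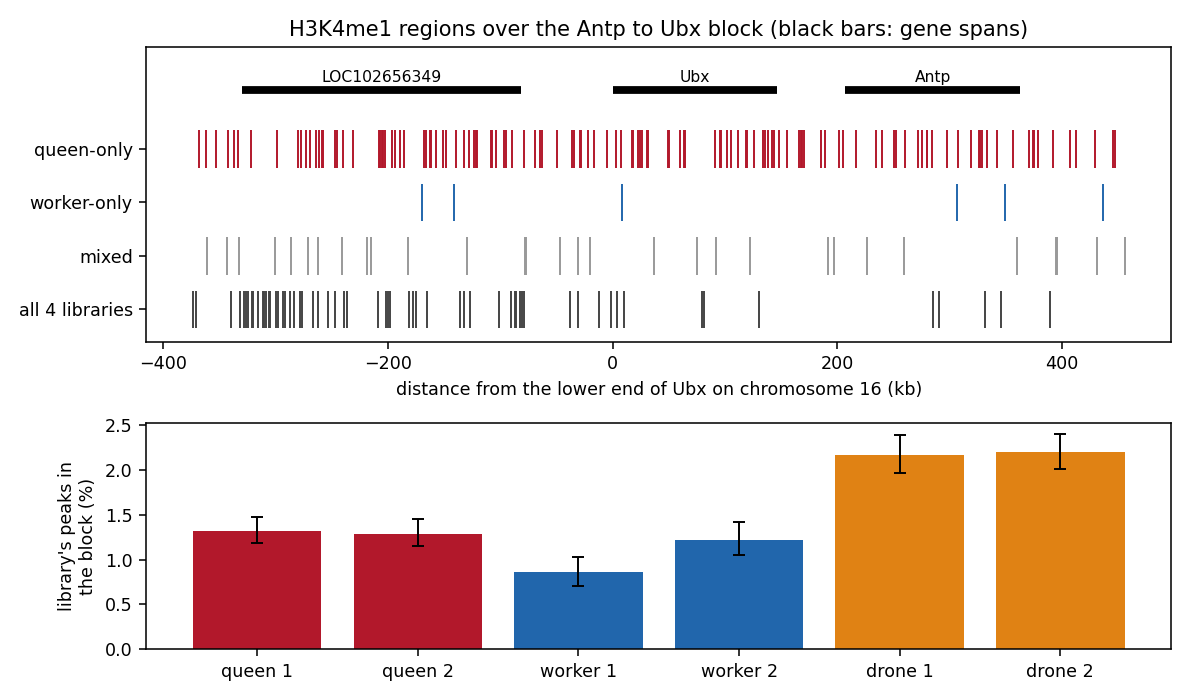
Above, midpoints of H3K4me1 regions of each class along chromosome 16, as distance in kb from the lower end of Ubx, with black bars for 3 genes. Below, the share of each library's H3K4me1 peaks that lie between the outer limits of LOC102656349 and Antp, with 95% Wilson intervals: 1.32% and 1.29% in queens, 0.858% and 1.22% in workers, 2.17% and 2.201% in drones.

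The gene with the most queen-only regions was LOC102656349, with 42 against 2 worker-only and 41 shared. It was followed by LOC413503 on chromosome 3, with 34 queen-only and 6 worker-only regions, LOC725329 on chromosome 7, with 30 and 3, and Ubx, with 28 and 1. Antp had 20 and 2. At equal numbers of peaks LOC102656349 held 15 queen-only and 12 worker-only regions, LOC413503 9 and 6, Ubx 4 and 3, and Antp 4 and 4. In the lists as deposited LOC413503 was high in both classes, as its 6 worker-only regions were also the most of any gene. Its H3K4me1 peaks numbered 104 and 93 in the queens and 43 and 49 in the workers, and its H3K27me3 peaks 173 and 171 in the queens and 108 and 95 in the workers, so both marks had more calls in both queen libraries. The other genes among the 10 with the most queen-only regions had 20 to 22 of them and at most 2 worker-only ones. After LOC413503, the genes richest in worker-only regions were LOC724344 and LOC725885, with 5 each and 15 and 13 queen-only regions. Only LOC551597, LOC408914 and LOC107965253 among the 10 had a balance near or towards the workers, with 5 and 4, 2 and 4, and 0 and 3 queen-only and worker-only regions.

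Among receptors for biogenic amines, the D1-like dopamine receptor genes Dop1 and DopR2 held the most queen-only regions. Queen-only regions outnumbered worker-only ones over the whole lists too, by 5626 to 814. Of 14 genes in this list 9 were found in the gene table, and 8 of them held a queen-only, 3 a worker-only and 7 a mixed region. Their median length was 77.3 kb, and of all genes of 50 to 100 kb 80.0% held a queen-only, 27.9% a worker-only and 66.8% a mixed region. Dop1, which encodes a D1-like receptor that raises cyclic AMP, had 6 queen-only regions, none worker-only and none mixed. DopR2, the other D1-like receptor of insects, had 4, 0 and 0. Dop3, a D2-like receptor that lowers cyclic AMP, had 3 queen-only and 5 mixed regions, the latter summed over the 4 mixed patterns. Peaks over the span of Dop1 numbered 15 and 12 in the queens and 9 and 10 in the workers, and over DopR2 8 and 10 against 2 and 2. These are peaks that the choice of regions used, and the queen lists as a whole had 1.69 times as many peaks as the worker lists. H3K27ac peaks over DopR2 went the other way, with 4 and 6 in the queens and 14 and 15 in the workers, and those over Dop1, 24 and 31 against 26 and 29, overlapped. With equal numbers of peaks Dop1 kept 4 queen-only regions and DopR2 kept 1, with none worker-only at either. The serotonin receptor genes 5-HT1, 5-HT2alpha, 5-HT2beta and 5-ht7 had 2 to 3 queen-only and 2 to 5 mixed regions each, and the tyramine receptor gene TyrR had 3 queen-only and 2 worker-only. Oa1, an octopamine receptor gene, had no region of either caste class.

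Among synaptic adhesion genes, Nrx-1 and NLG-5 held the most queen-only regions. Nrx-1, the presynaptic adhesion protein neurexin, spans 337998 bp and had 18 queen-only, 2 worker-only and 14 mixed regions. The neuroligins are its postsynaptic partners. NLG-5 had 11 queen-only, 2 worker-only and 6 mixed regions, NLG-3 had 5, 0 and 1, and NLG-4 had 2, 0 and 1. Dscam, an adhesion molecule of the immunoglobulin family, had none of either caste class. Peaks over Nrx-1 numbered 62 and 43 in the queens and 33 and 24 in the workers, to be read beside the ratio of 1.69 between the whole lists. At equal numbers of peaks it held 8 queen-only and 5 worker-only regions. Of 14 genes of the list 5 were matched, and 4 had a queen-only region, beside 90.8% of all genes of at least 100 kb.

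Para, the voltage-gated sodium channel, had 2 queen-only and 2 mixed regions, and Cac, the calcium channel of presynaptic terminals, had 3 and 2. Neither had a worker-only region, which 27.9% of all genes of 50 to 100 kb and 49.6% of longer ones had. The 10 subunits of the nicotinic acetylcholine receptor, the main excitatory receptor of the insect brain, were added as a list after their values were seen. All of the queen-only regions lay in the long subunit genes, nAChRa6 with 11, nAChRa3 with 8, nAChRa7 with 7, nAChRa4 with 5 and nAChRa1 with 3. Queen-only regions lay in 80.0% of all genes of 50 to 100 kb and in 90.8% of longer ones, so holding one is usual for genes of this length. The subunit genes nAChRa2, nAChRa8, nAChRa9, nAChRb1 and nAChRb2, each under 4 kb long, had none, and 6.11% of all genes under 10 kb had one. nAChRa1 had 4 and 6 queen peaks and 0 and 0 worker peaks, and its H3K27ac peaks again went the other way, 1 and 7 in the queens and 11 and 15 in the workers. Its queen-only regions were weak, as none was left at a −log10 q of at least 5 or at equal numbers of peaks.

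Ecdysone, the moulting hormone, acts through the receptor pair EcR and Usp, and E74, E75, Br-c and Mblk-1 encode transcription factors of its response. In adult bees Mblk-1 is known for its expression in large-type Kenyon cells of the mushroom bodies, and Kr-h1 is the early response gene of juvenile hormone. Of 14 listed genes 9 were matched, and 7 had a queen-only, 3 a worker-only and 4 a mixed region. Their median length was 54.5 kb, and these shares are near or below the 80.0%, 27.9% and 66.8% of all genes of 50 to 100 kb. Mblk-1 had 3 queen-only and no other regions, with 6 and 7 queen peaks against 2 and 1 worker peaks. None of these queen-only regions was left at equal numbers of peaks, 1 was left at a −log10 q of at least 5, and after thinning it held 1 queen-only and 1 worker-only region. Ecr had 3 queen-only, 2 worker-only and 4 mixed regions, E74 had 3, 1 and 5, E75 had 2, 2 and 2, and Usp had 2, 0 and 4. Apart from Mblk-1, Br-c and Kr-h1, with 3, 1 and 1 queen-only regions and nothing else, these genes had at least as many mixed as queen-only regions. The mixed count sums 4 patterns, and the queen-only count is of 1 pattern. The juvenile hormone esterase gene Jhe had no region of the caste classes.

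Matched genes of insulin signalling and of the daily clock had no queen-only region. Of the insulin and TOR list 3 of 12 genes were matched, among them the insulin receptor gene InR-2, which had 1 region shared by all libraries. The clock genes Per and Cry2 had no queen-only and no worker-only region. Among genes of other tissues, 1 of 9 royal jelly protein genes, Mrjp1, and 1 of 4 matched photoreceptor genes, Lop1, had a queen-only region, and none had a worker-only one. Those genes are 1835 to 7082 bp long, and 6.11% of all genes under 10 kb had a queen-only region. No gene of the H3K4 methylation and glial lists was found in the gene table by symbol. Mad, the transcription factor that carries signals of bone morphogenetic proteins and was looked up after values were seen, had 11 queen-only, no worker-only and 6 mixed regions over 409447 bp. Its H3K4me1 peaks numbered 35 and 26 in the queens and 22 and 19 in the workers, and at equal numbers of peaks it held 1 queen-only and 2 worker-only regions. Camkii, a calcium-dependent kinase of synapses, had 5 queen-only and 3 worker-only regions.

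**Figure D4:**
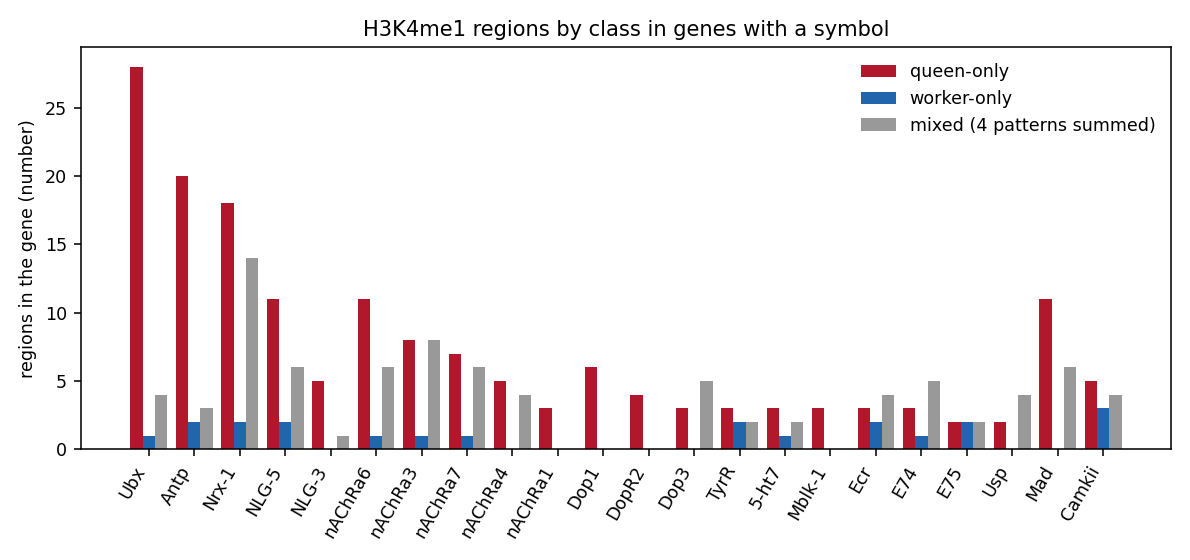
Number of queen-only, worker-only and mixed H3K4me1 regions (vertical axis) in genes of the lists above that have a symbol, grouped by role, with Mad and Camkii last. Ubx and Antp have 28 and 20 queen-only regions, and Dop1, DopR2, Mblk-1 and nAChRa1 have 6, 4, 3 and 3 with no region of the other classes shown.

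The drone libraries, which took no part in the rule, had peaks at more queen-only than worker-only regions. Of queen-only regions 35.8% and 39.0% had a peak in drone replicates 1 and 2, and of worker-only regions 28.5% and 28.7%. Mixed regions had 27.8% and 29.1%, and regions shared by all females 59.3% and 55.3%. The single mixed patterns differed widely, from 18.9% for both replicates 1 to 36.1% for both replicates 2 in drone replicate 1. In each drone library the queen-only and the worker-only share both lay within the range of the single mixed patterns. The difference between queen-only and worker-only regions, 8.78 percentage points, changed direction with the lists used. It was −3.89 points with equal numbers of peaks and −2.69 without queen replicate 2, and 23.8 without worker replicate 2. The drone readout therefore does not place the drones nearer to either female caste at these regions.

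Calls of the other marks differed between the castes in the direction of the H3K4me1 call. At queen-only regions H3K27ac was called in 37.6% ± 0.654 of regions in the queens and in 31.5% ± 1.395 in the workers (SD, n = 2 libraries each). H3K4me3 was called in 13.5% ± 1.84 and 6.15% ± 1.78. H3K27me3, the repressive mark, was called in 26.6% ± 0.101 and 22.4% ± 0.0377. The queens were higher for all 3 marks, by 6.09, 7.39 and 4.204 points, and no queen library overlapped a worker library. At worker-only regions the order was the reverse for each mark. H3K27ac was called in 23.7% ± 0.174 of regions in the queens and 32.1% ± 2.61 in the workers, H3K4me3 in 4.24% ± 0.956 and 10.6% ± 4.86, and H3K27me3 in 17.4% ± 0.434 and 25.5% ± 0.0869. In each of the 6 comparisons the exact permutation test gave p = 0.33, and 0.33 after Benjamini-Hochberg adjustment, since 4 libraries allow no smaller value. All 6 differences kept their direction under the alternatives tried, but not their size. At queen-only regions leaving out 1 H3K4me1 library gave 2.60 to 2.93 points for H3K27me3 and 4.42 to 7.46 for H3K4me3, the lowest of each without queen replicate 2, and for H3K27me3 also without worker replicate 1. At worker-only regions it gave −7.52 to −4.09 points for H3K27ac, the smallest without worker replicate 2, and −7.59 to −4.64 for H3K27me3 and −5.72 to −2.52 for H3K4me3, the smallest of each without worker replicate 1. Without worker replicate 2, H3K4me3 at worker-only regions gave −2.59 points. H3K4me3 differed by 11.5 points at queen-only regions with equal numbers of peaks, and by −9.62 at worker-only regions with a −log10 q of at least 5.

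The same shares over other regions give the background. Over all merged regions the queens exceeded the workers by 1.24 points for H3K27ac and 2.95 for H3K4me3, with overlapping libraries, and for H3K27me3 the difference was −0.942 without overlap. At mixed regions H3K27ac and H3K4me3 differed by −0.969 and 0.0154 points, again with overlap, and H3K27me3 by −3.26 without overlap. At regions shared by all 4 libraries H3K27me3 differed by −3.30 points, also without overlap. H3K27me3 was thus called more often in the workers in all 3 of these sets, the direction it has at worker-only regions, and in the opposite direction at queen-only regions. Marks of active and of repressed sequence were thus both called more often in the caste that had the H3K4me1 call. In single combinations, 43.0% of queen-only regions had no other queen mark, where a mark counts if both queen libraries have a peak, 26.4% had H3K27ac alone, 20.8% H3K27me3 alone and 5.58% H3K27ac with H3K4me3. With worker marks at worker-only regions the shares were 50.4%, 25.2%, 19.5% and 1.84%.

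**Figure D5:**
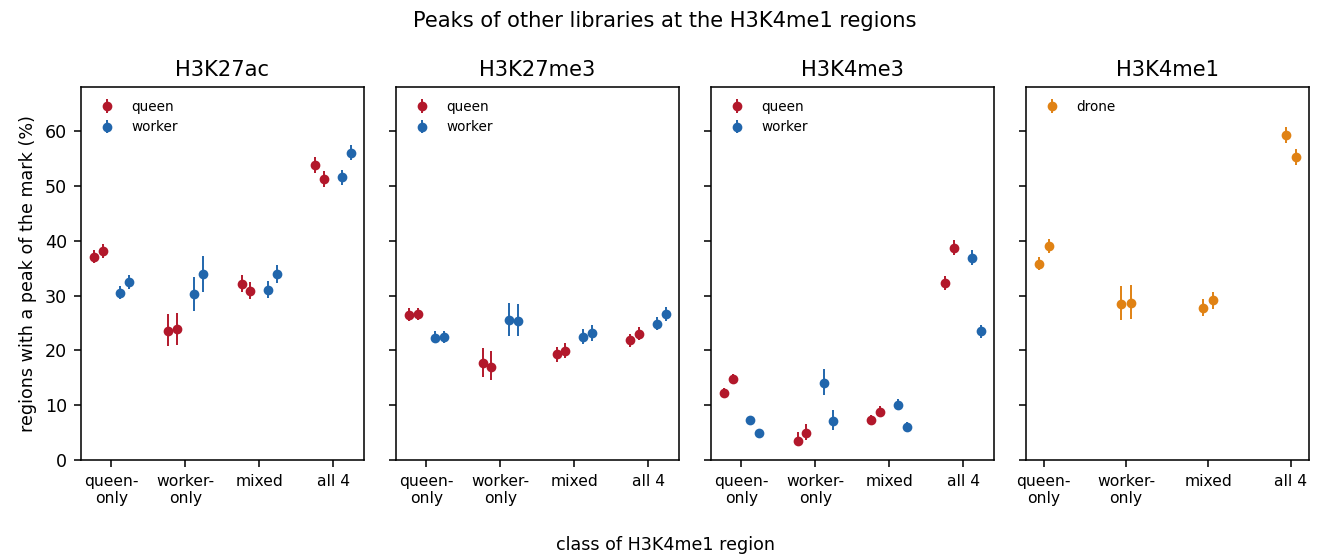
Share of H3K4me1 regions with a peak in each library of another mark, and in each drone H3K4me1 library (last panel), by class of region, with 95% Wilson intervals for counting error. Queen points lie above worker points at queen-only regions and below them at worker-only regions for H3K27ac, H3K27me3 and H3K4me3.

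The local background moved with the class as well. It is the expected pileup that each peak was tested against. A list gives it only where it has a peak, so at regions without a queen H3K4me1 peak it was read from the H3K27me3 lists. It was compared at regions with an H3K27me3 peak in all 4 lists of that mark, relative to the lowest background of each list. This measure was chosen after the data were seen, and covers 121 of the 814 worker-only and 999 of the 5626 queen-only regions. At 121 worker-only regions the medians were 3.21 and 3.23 in the queens and 2.30 and 2.34 in the workers, and the queen background was higher at 88.4% of them, by a median of 0.38 on the log2 scale. At 999 queen-only regions the medians were 3.27 and 3.29 against 3.17 and 3.17, with a log2 difference of 0.013. Over all merged regions with such peaks the log2 difference was 0.080 and the queens were higher at 63.6%. At mixed regions these values were 0.127 and 74.4%, and at the mixed regions of both replicates 2 they were 0.191 and 80.5%. The queen background of H3K4me1 itself is not known at worker-only regions. A high one there could by itself withhold a queen call, and the share of worker-only calls that it accounts for was not tested. The sources used here do not say which input library was the control of which list, so control and caste cannot be told apart.

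The strongest queen-only regions were of several kinds. They were ranked by the lower −log10 q of both libraries. The first, on chromosome 1 from 17884054 to 17884576 and outside genes, had a −log10 q of 36.5 and 41.9 but folds of only 1.72 and 1.76. Its summit pileups were 715 and 762 tags over backgrounds of 414 and 432, which are 24.5 and 23.9 times the lowest background of the lists. The regions in LOC724847, LOC410686 and LOC724468 had backgrounds of 3.64 to 6.01 times the lowest and folds of 2.57 to 2.91. The call at the first region thus rests on a small excess over a high background. In those genes the background was high too, but the folds were above the queen-only medians of 2.06 and 2.00. The remaining strong regions stood over low backgrounds. On chromosome 10 from 10947579 to 10947879, in LOC726546 and LOC113219062, 96 and 104 tags stood over backgrounds of 18.1 and 18.4, which are 1.07 and 1.02 times the lowest, with folds of 5.08 and 5.41. H3K27ac was called there in both castes and H3K4me1 in both drone libraries. On chromosome 1 from 5764920 to 5765172, in LOC725345, the folds were 4.75 and 4.94 over 94 and 99 tags, with H3K27ac in all 4 libraries and no drone H3K4me1.

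The strongest worker-only regions had a lower −log10 q than the strongest queen-only ones, and low backgrounds. Their −log10 q began at 19.5 and 19.1, at chromosome 3 from 13048959 to 13049195 within LOC413503, where 65 and 68 tags gave folds of 4.47 and 4.246. The next was outside genes on chromosome 7 from 12412451 to 12412660. It had 57 and 63 tags over the lowest background of the lists, folds of 4.78 and 5.41, and H3K27ac in both worker and neither queen library, which made it the only one of the 6 strongest worker-only regions where a second mark was divided by caste in both replicates. The other 4 lay on chromosomes 8, 10 and 11 with folds of 3.92 to 4.70. The widest region of each class was not among its 6 strongest. For the queens it measured 1958 bp, in LOC409923 on chromosome 1. Its folds were 2.35 and 1.88 and its −log10 q 13.2 and 6.84, beside queen-only medians of 6.82 and 6.65. For the workers it measured 833 bp, in LOC100577455 on chromosome 11. Its folds were 2.23 and 1.64 and its −log10 q 5.31 and 2.04, beside worker-only medians of 5.01 and 5.36.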

How the data were processed

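The data were ChIP-seq peak lists of queen, worker and drone brains. The authors mapped reads with BWA 0.7.17 and called peaks in each library with MACS2. The deposited lists give each peak's position, the fold enrichment of its summit, with its p-value and q-value as −log10. No read counts were used, so a region outside a list was not called, which does not show that the mark is absent.

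Solving fold and p-value together gave each summit's background and a whole-number pileup, which met the listed −log10 p within a relative 0.001 at 99.98% or more of summits. The lowest background gave the tags per list, taking the shortest peak as the fragment length. Recovery, merging and overlap were tested on simulated data. Merging, overlaps and exact tests used Python 3.11.15, pandas 2.3.3, numpy 2.4.6 and scipy 1.17.1. Intervals are 95% Wilson intervals. A region belongs to a gene if its midpoint lies in the span or within 200 bp.

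Libraries were grouped by their titles. The alternatives were a −log10 q of at least 5, equal numbers of peaks, thinning to the lowest depth (15.7 M tags, keeping a −log10 p of at least 4), joining peaks across 500 bp, 300 bp windows on summits, leaving out each library, placed chromosomes only, gene ends of 1000 bp, cluster gaps of 5 and 20 kb, and a 5 kb margin of genes. The genes named were the 10 with the most regions of each class, the densest per 10 kb, those at the 6 strongest regions and the largest clusters of each class, and members of the gene lists. The members, lists and rules were chosen with earlier results of these data known. GC content and sequence of the regions were not analysed here. The result for 1 gene is not reported here.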

Additional observations from a re-analysis of the deposited data

How the results depend on the processing

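The log2 ratio of queen-only to worker-only regions, 2.79, was 3.35 at a −log10 q of at least 5, 0.30 at equal numbers of peaks, 1.74 after thinning and 2.68 with summit windows. The clustered share of queen-only regions, 15.7%, was 10.8%, 2.08% and 6.76% in the first 3 of these settings, 9.35% with peaks joined across 500 bp, 5.80% with gaps of 5 kb and 37.2% with gaps of 20 kb. The clustered share of worker-only regions was 0 in the stricter lists, −log10 q of at least 5, and also with gaps of 5 kb. The drone difference of 8.78 points became 10.9 at a −log10 q of at least 5, −3.89 at equal numbers, 3.81 after thinning and 6.26 with summit windows. The share of queen-only regions at gene ends was 2.03% at equal numbers. With gene ends of 1000 bp, 72.9% of queen-only and 74.7% of worker-only regions lay in gene bodies and 11.1% and 10.9% at gene ends. Genes of the lists with a queen-only region fell from 23 to 13 at equal numbers. Apart from the construction of each setting, the cause of these shifts was not tested.

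Leaving out 1 library gave 7634 to 11858 queen-only and 1284 to 3828 worker-only regions, a log2 ratio of 1.00 to 3.21, clustered shares of 23.6% to 38.8% and 0.349% to 5.51%, and a drone difference of −2.69 to 23.8 points. Fewer libraries must be without a peak in each class then. The counts over the Hox block under these settings were added after the data were seen. With the replicate number as a block the log2 ratio of peak numbers was 0.75, as without it. Jaccard indices of same-numbered queen and worker libraries, 0.261 and 0.264, lay within those of the other pairs, 0.252 and 0.272. By this measure same-numbered libraries were not more alike. With so few pairs, whether libraries of the same number shared a batch was not tested. The caste split over the mean of the mixed splits was 1.54 to 1.99 without 1 library. Of 198 values recomputed 2 changed direction, both of them the drone difference. A further 54 were classed as moved in size and 142 as the same. A peak list from 15.7 M tags lacks weak peaks that one from 25.1 M can hold, and 2 libraries per caste allow no p below 0.33.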
